A study of Mus musculus with 6 samples.

Results

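The RNA of control mouse small intestine is described here from the 3 libraries that served as green fluorescent protein (GFP) controls, out of 6 libraries in the series. They were chosen by their titles and by the treatment label "control", and they are replicates 1-1, 1-4 and 3-1. Total RNA was taken from small intestine, ribosomal RNA was depleted, and strand-specific libraries were made. All 3 titles begin with the letters DIO, which the labels do not explain. The labels give no strain, sex, age, intestinal segment, or route and promoter of GFP, and leave unsaid whether the 3 libraries come from 3 animals. The spread between libraries given here may therefore be technical in part. All values are descriptions of 1 group, and no test was made.

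The lining of the small intestine is a single layer of cells renewed from stem cells in the crypts. Enterocytes digest and absorb food through the brush border, goblet cells secrete mucus, Paneth cells at the crypt base release antimicrobial peptides, and enteroendocrine and tuft cells sense the gut content. Under this layer lie connective tissue, immune cells with many antibody-secreting plasma cells, vessels, nerves and smooth muscle. A tissue library mixes all of these. Fewer cells of a type and less RNA per cell cannot be told apart in it.

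The libraries held 85411847, 89895151 and 93742978 read counts in replicates 1-1, 1-4 and 3-1. Of the 45777 genes in the table, 25296 had a read in at least 1 library and 19757 in all 3. A level within a gene is given as CPM, the count relative to library size, with TMM factors from the 3 libraries. A level compared between genes is given as the deposited TPM, which is corrected for transcript length. The 13512 genes with a mean of at least 1 CPM are called measured, and 12491 of them are protein-coding. At 1 CPM a gene has about 89.7 reads, and counting error alone gives a coefficient of variation of 10.6%. The spread beyond counting, edgeR's biological coefficient of variation, was 0.313.

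Replicate 1-4 stood apart from the other two in several ways that bear on the results below. Across genes, which are not replicates, the correlation of log2 CPM (Pearson's r) was 0.963 between 1-1 and 3-1, 0.949 between 1-1 and 1-4, and 0.953 between 1-4 and 3-1. The 10 genes with the most counts took 21.1%, 12.8% and 22.1% of the counts in 1-1, 1-4 and 3-1. Over all measured genes, the library furthest from the middle library was 1-4 on the high side for 25.3% and on the low side for 19.4%. For 3-1 these shares were 12.7% and 11.7%, and for 1-1 12.6% and 18.2%. Counts below of list members highest or lowest in a library are to be read beside this uneven background. The shares above tell which library lay furthest from the middle one, not which was highest or lowest. The share of all genes highest in each library is not given. A count of members highest in a library therefore does not by itself set a list apart from all genes. Levels also moved with transcript length. Among 670 nuclear coding genes with transcripts under 1 kb, the median log2 CPM deviation from the 3-library mean was -0.22, 0.20 and 0.021 in 1-1, 1-4 and 3-1. Among 984 genes of 8 kb or more the medians were 0.24, -0.32 and 0.068. Replicate 1-4 was the lowest library for 72.0% of the long genes and for 10.3% of the short ones. Replicate 1-1 was the reverse, lowest for 8.54% of the long genes and 72.2% of the short ones. The lengths were computed from the deposited counts and FPKM values, and this comparison was added after the values were seen.

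**Figure D1:**
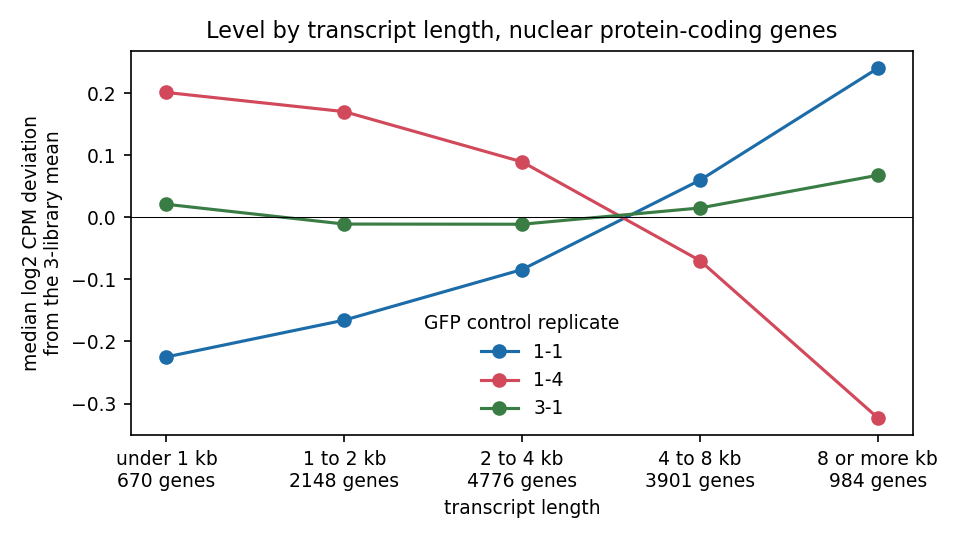
Median deviation of log2 CPM from the 3-library mean (vertical axis) for nuclear protein-coding genes in 5 bins of transcript length (horizontal axis), with 1 line per library. The line of replicate 1-4 runs from 0.20 under 1 kb to -0.32 at 8 kb or more, and that of replicate 1-1 from -0.22 to 0.24.

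Protein-coding genes took 85.0%, 91.0% and 84.5% of the counts in 1-1, 1-4 and 3-1 (86.8% ± 3.58, SD, n = 3). A few structured RNAs and mitochondrial ribosomal RNA held most of the rest. The RNA of the signal recognition particle, 7SL, which helps to guide new proteins to the endoplasmic reticulum, took 6.15%, 4.23% and 6.49%. Mitochondrial ribosomal RNA took 4.40%, 1.35% and 4.67%, and mitochondrial mRNAs, which are part of the coding share, took 4.63%, 2.00% and 6.02%. Each of these classes was lowest in 1-4. The widest 95% interval (Wilson) of a class share was ± 0.00842 percentage points, which covers counting error only, so the libraries differed by more than their counting error.

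The 7SL reads were split over 2 rows, Rn7s1 (Entrez 103948, chromosome 12 from 69159295 to 69159593 in mm10) and Rn7s2 (Entrez 103949, chromosome 12 from 69361183 to 69361481). Their sequences in the GENCODE annotation are the same in all 300 bases, so the 2 rows cannot be told apart by their reads. Rn7s1 was at 30467, 20515 and 34559 CPM and Rn7s2 at 30073, 20011 and 34326 CPM in 1-1, 1-4 and 3-1. The levels of the 2 rows were within a few percent of each other in every library.

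Of 10 measured genes in the list of structured RNAs 9 were lowest in 1-4 and 9 highest in 3-1. Rn7sk, a regulator of transcript elongation, was at 17657, 9272 and 18628 CPM. Rpph1, the RNA of ribonuclease P that trims transfer RNAs, was at 11331, 3959 and 13004 CPM. Rmrp, the RNA of a related enzyme, took 0.174%, 0.152% and 0.184% of the counts. Among mitochondrial RNAs, mt-Rnr2, the large ribosomal RNA of the mitochondrion, was at 41582, 12393 and 47442 CPM and had the highest mean count of any gene. Of the 62 rows of nuclear ribosomal RNA, which the kit depletes, 60 had no read.

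The rows of miRNAs and of long noncoding RNAs took small shares of the counts. The 979 miRNA rows took 0.00196%, 0.00119% and 0.00133% of the counts, and 1 of them, Mir703, was measured. Long noncoding RNAs took 0.365%, 0.229% and 0.321%. Malat1, an abundant nuclear transcript, led them at 1014, 297 and 1008 CPM. Neat1, the scaffold of nuclear paraspeckles, was at 53.0, 11.4 and 83.3 CPM. Both were lowest in 1-4, and both are long transcripts (7.68 and 13.4 kb). Centring each library within 20 bins of transcript length changed their ratios from 3.41 to 2.86 and from 7.31 to 5.15. Tug1, another nuclear long noncoding RNA, was steadier at 103, 82.8 and 95.6 CPM. Xist, which silences 1 X chromosome in female cells, was at 0.184, 0 and 0 CPM, while the Y-linked Ddx3y was at 86.2, 71.9 and 87.0 CPM.

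**Figure D2:**
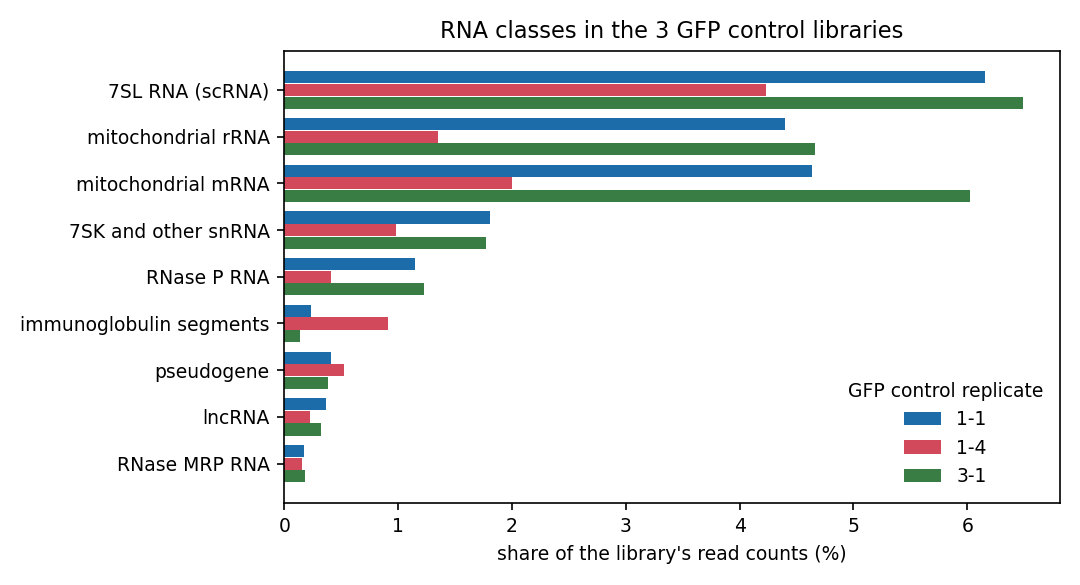
Share of each library's read counts (horizontal axis, percent) in 9 RNA classes other than nuclear protein-coding genes, with 1 bar per library. 7SL RNA takes 6.15%, 4.23% and 6.49%, and mitochondrial rRNA 4.40%, 1.35% and 4.67%, in replicates 1-1, 1-4 and 3-1.

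Because 7SL, 7SK and RNase P RNA are short, they weigh more in TPM than in counts. The protein-coding share of TPM averaged 60.1%, against 86.8% of counts. Ranks among protein-coding genes are therefore given apart.

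Transcripts of absorption, antimicrobial defence, mucus and mitochondrial respiration led the protein-coding genes. The 25 highest took 28.1%, 29.1% and 29.0% of coding TPM in 1-1, 1-4 and 3-1, and 168, 133 and 153 genes made up the first 50 percent of it. Of the 25 highest genes in each library, 19 were the same in all 3, and of the 1000 highest, 846 were. COX1, the catalytic subunit of mitochondrial cytochrome oxidase, was first by mean TPM with 24056 ± 11636 (SD, n = 3). Fabp2 (Entrez 14079, chromosome 3 from 122895072 to 122899506), the intestinal fatty acid binding protein, was second with 15265 ± 4014. COX3, of the same oxidase as COX1, followed with 12837 ± 5388.

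Reg3b, a secreted lectin that binds bacteria, was next with 9510 ± 4055 TPM, and Defa24, a Paneth cell defensin, followed with 9474 ± 7629. Zg16, a lectin of goblet cell mucus, stood at 8019 ± 844 TPM. Fabp6, the bile acid binding protein of ileal enterocytes, had 7838 ± 1570, and Apoa1, the main protein of high-density lipoprotein, 7202 ± 318. Actb, the cytoplasmic actin that also fills microvilli, had 6272 ± 1356. Of the 25 highest genes, 9 were defensins of the Defa family. The rest included Lyz1, the Paneth cell lysozyme, Selenop, a selenium carrier, Reg3g, a sister of Reg3b, Eef1a1, an elongation factor of protein synthesis, Tff3, the trefoil peptide of goblet cells, and Krt8, a keratin of simple epithelia.

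The order at the top depended on the library. COX1 was rank 1, 3 and 1, and Fabp2 rank 2, 2 and 3, in 1-1, 1-4 and 3-1. Defa24 was rank 12, 1 and 8, and Reg3b rank 4, 17 and 5. Zg16 moved from rank 5 to 10 and 6.

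**Figure D3:**
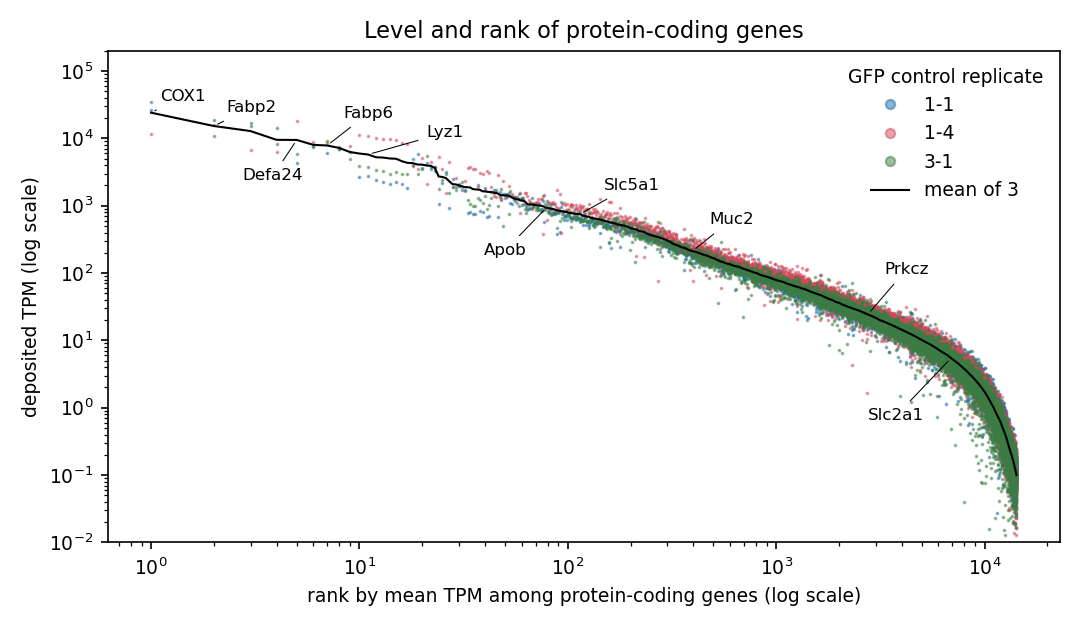
Deposited TPM (vertical axis, log scale) of protein-coding genes against their rank by mean TPM (horizontal axis, log scale), with points for the 3 libraries and a line for their mean. The mean runs from 24056 TPM for COX1 through 746 TPM for Slc5a1 to 5.46 TPM for Slc2a1, and points scatter widely among the first 25 ranks and among the lowest genes.

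The upstream sequence of some of these genes is shown because a TATA box, the motif TATAA near the start site, was common among the highest genes. The motif was looked for on the coding strand, whole, between 40 and 16 bases before the RefSeq start (GRCm38). It was present in 9 of the 25 highest genes that have a promoter in the table (36%), 22% of the highest 100, 7.5% of the highest 1000 and 3.19% of all 10025 measured coding genes with a promoter. Defa genes were 5 of the 9 and 7 of the 22, and without that family the motif was in 4 of 17 (23.5%), 15 of 90 (16.7%) and 6.88% of the 989 others. Of all 17519 coding genes with a promoter it was present in 5.02%. The last 60 bases before the start are given 5′ to 3′ with TATAA in capitals, for chromosome 8 from 21509198 to 21509257 (Defa20, plus strand), chromosome 8 from 21162217 to 21162276 (Defa22, plus), chromosome 6 from 78370825 to 78370884 (Reg3b, plus), chromosome 11 from 43601563 to 43601622 (Fabp6, minus), chromosome 3 from 122895012 to 122895071 (Fabp2, plus) and chromosome 9 from 78481725 to 78481784 (Eef1a1, minus):
Defa20: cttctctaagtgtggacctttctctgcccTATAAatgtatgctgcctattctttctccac
Defa22: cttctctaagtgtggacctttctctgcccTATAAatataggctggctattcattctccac
Reg3b: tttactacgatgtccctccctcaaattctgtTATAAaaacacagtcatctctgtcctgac
Fabp6: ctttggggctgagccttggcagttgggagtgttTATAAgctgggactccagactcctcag
Fabp2: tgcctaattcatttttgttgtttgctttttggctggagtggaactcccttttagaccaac
Eef1a1: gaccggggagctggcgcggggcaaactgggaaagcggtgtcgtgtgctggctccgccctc
Fabp2 and Eef1a1, although among the 25 highest, do not hold these letters in the window. A match is a run of letters and not a tested promoter element.

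Genes of fat absorption included some of the highest of the tissue, and their spread was near that of all genes. Of 28 listed members 27 were measured. Of these 9 were steady, meaning that the highest library was at most 25% above the lowest, and 0 were variable, meaning a ratio of highest to lowest of at least 4. Over all measured genes 22.8% were steady and 3.53% variable, and the median ratio was 1.46 against 1.41 in this list. Mttp, the transfer protein that lipidates new apolipoprotein B, was at 1937, 2023 and 1696 CPM. Dgat2, the last enzyme of triglyceride synthesis, was at 208, 220 and 256 CPM. Apoa1 was at 5340, 5521 and 5969 CPM. The 3 libraries lay close together for these 3 genes. Apob, the core protein of the chylomicron, was at 12366, 6275 and 12194 CPM, lower in 1-4, and its transcript of 15.2 kb lies in the long class. The enterocyte marker list shares Fabp1, Fabp2, Apoa1, Apoa4 and Apob with the list of fat absorption. It spread more, with a median ratio of 2.05 and 1 of 14 variable. Apoa4, a lipoprotein protein of the upper gut, was at 1901, 2827 and 722 CPM, lowest in 3-1.

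Brush border enzymes also spread about as all genes did, with 23 of 24 measured, 6 steady, 1 variable and a median ratio of 1.40. Sis, the sucrase-isomaltase that splits sucrose and starch products, was at 9247, 8378 and 6632 CPM. Lct, lactase, was the variable member at 106, 187 and 37.1 CPM. Tmprss15, the enteropeptidase that starts trypsin activation and is a gene of the duodenum, had no read in any library. Peptide and amino acid transporters had 14 of 14 measured, 5 steady and 0 variable. Among them Slc15a1, the peptide carrier PEPT1, was at 1124, 979 and 969 CPM, and Slc6a19, the carrier of neutral amino acids, at 1706, 1422 and 1586 CPM.

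Of 18 sugar transporters 16 were measured. Slc5a1, the sodium-glucose carrier SGLT1, was far the highest with 746 ± 153 TPM (SD, n = 3) and 2407, 2523 and 1946 CPM. Slc2a2, the carrier GLUT2, was at 148, 204 and 67.2 CPM, and Slc2a5, the fructose carrier, at 130, 148 and 63.1 CPM. Both were lowest in 3-1. Slc2a1, the carrier GLUT1 named in the study's title, was steady and low at 10.1, 10.8 and 12.4 CPM (5.46 ± 0.318 TPM, SD, n = 3), and ranked 7046, 6994 and 6509 among coding genes in 1-1, 1-4 and 3-1. Slc5a4b, of the SGLT family, was the variable member at 33.5, 114 and 25.9 CPM.

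In the protein kinase C family, whose members pass on lipid and polarity signals, 14 of 15 were measured, 4 steady and 2 variable. Prkcd, which responds to diacylglycerol, had the highest level of the family at 110 TPM (243, 222 and 263 CPM). Prkcz (Entrez 18762, chromosome 4 from 155260118 to 155361428), the atypical kinase that the study overexpressed in its other libraries, was at 64.4, 91.9 and 90.6 CPM, or 24.3 ± 4.78 TPM. Its sister gene Prkci was steady at 50.9, 50.7 and 52.3 CPM, or 14.7 TPM. The TPM ranges of the atypical pair did not overlap, 19.5 to 29.0 for Prkcz and 13.6 to 15.48 for Prkci. Prkcb, a kinase of B cells and other leukocytes, was variable at 23.9, 9.69 and 5.12 CPM, in the same order of libraries as the B cell genes below.

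Some genes known from the ileum were high in all 3 libraries, and 14 of 17 entries of the distal list were measured. Fabp6 was at 2377, 3191 and 3943 CPM, Slc10a2, the bile acid uptake carrier, at 1805, 1228 and 1818 CPM, and Slc51a, of the bile acid exporter, at 479, 614 and 875 CPM. Of 15 entries in the proximal list 12 were measured too, while 2, Pdx1 and Cyp8b1, had no read. The summed level of the proximal list was 2547, 3678 and 1185 CPM in 1-1, 1-4 and 3-1. That of the distal list was 15015, 14089 and 19302 CPM. The libraries differed by region markers as well. Fgf15 (Entrez 14170, chromosome 7 from 144896532 to 144900953), the hormone by which the ileum curbs bile acid synthesis, was at 20.02, 5.85 and 110.9 CPM, highest in 3-1. Hoxb9, a posterior patterning gene, was at 2.91, 1.68 and 12.2 CPM.

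Gata4, a transcription factor of duodenum and jejunum, had nearly the reverse order at 6.60, 9.04 and 1.68 CPM. Of 14 measured distal markers 12 were highest in 3-1, and of 12 measured proximal markers 7 were highest in 1-4 and 3 in 3-1. The mean log2 deviation of the distal list was -0.11, -0.40 and 0.51 in 1-1, 1-4 and 3-1, and that of the proximal list 0.11, 0.34 and -0.45. The position of each piece along the intestine is not in the labels, and its part in these differences was not tested.

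Paneth cell genes had the widest spread of any epithelial list and were highest in 1-4. All 15 markers were measured, all 15 were highest in that library, and 10 were variable, against 3.53% of all measured genes. The Defa family as a whole had 20 measured members within 1 stretch of chromosome 8 (21025545 to 21735471), with ratios from 3.51 to 4.72. Their summed share of coding TPM was 4.82%, 16.5% and 6.96% in 1-1, 1-4 and 3-1. Defa24 (Entrez 503491) was at 1378, 5639 and 2135 CPM, Defa20 at 864, 3553 and 1422 CPM, and Lyz1 at 2719, 10022 and 4084 CPM. Outside the defensins, Ang4, an antimicrobial ribonuclease, was at 125, 574 and 197 CPM and Itln1, a lectin that binds bacterial sugars, at 729, 2611 and 1179 CPM. Mmp7, the protease that activates defensins, varied less, at 62.8, 126 and 70.8 CPM.

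The Paneth count rests on where the ratio lies near 4. Without 1-4 or without 1-1 it was 0 of 15. It was also 0 when centred by transcript length, where the Defa ratios ran from 2.63 to 3.52. The median ratio of the Paneth list went from 4.13 to 3.08. These transcripts are short (0.467 kb for Defa20), and short genes were high in 1-4. The part of length in the Paneth spread was not tested. Some Defa genes are close copies. The 250 bases upstream of Defa21 and Defa22 are the same, and Defa20 matches them in 245 of 250. Defa32 matches each of the 3 in 69 or 70 of 250, but positions were compared without gaps. TATAA begins 31 bases before the start in Defa20 and 29 in Defa32, with the same bases around it. This shift lowers a match by position, so the 69 or 70 does not measure how alike Defa32 is. Transcripts were not compared. Reads can be split among close copies in counting, so single members are uncertain and the family sum is the firmer value. Defa21 and Defa22 were at 715, 2968 and 1127 CPM and at 687, 3076 and 1083 CPM.

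Among goblet cell genes the large mucin had the widest spread. Of 12 markers 12 were measured, 1 was steady and 1 variable, the median ratio was 1.501, and 9 were highest in 3-1. Zg16 was steady at 3860, 4514 and 4544 CPM, Fcgbp, a mucus protein, was at 5695, 6560 and 7419 CPM, and Tff3 at 1174, 1287 and 1485 CPM. Muc2, the gel-forming mucin, was the exception at 1313, 391 and 1855 CPM. Muc3, a membrane mucin of the brush border, had a still larger ratio of 8.90, at 1771, 331 and 2946 CPM. Both mucins were low in 1-4, where Zg16, Fcgbp and Tff3 were not. Their transcripts are long (7.58 and 6.57 kb), and centring by length changed their ratios to 3.99 and 7.92. Mucins hold repeats, which can make counting uncertain.

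Among the rarer epithelial cells, enteroendocrine markers had 15 of 16 measured with 0 variable, near the 3.53% of all measured genes in so short a list. Tuft markers had 9 of 12 measured with 0 variable, and 8 of the 9 were highest in 3-1, among them Trpm5, the taste-channel gene, at 7.46, 8.19 and 16.4 CPM. Reg4, a lectin of enteroendocrine and deep crypt cells, was lower in 1-1 than in both others, at 16.7, 61.9 and 53.2 CPM.

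Stem cell markers, taken as a list, differed little between the libraries. Of 12 markers 10 were measured, 4 were steady and 0 variable, and the list's mean log2 deviation was -0.021, 0.0068 and 0.015 in 1-1, 1-4 and 3-1. Smoc2, a matrix protein of crypt base cells, was at 36.9, 37.7 and 37.0 CPM. Olfm4, an abundant crypt base glycoprotein, was at 367, 534 and 449 CPM, and Lgr5, the receptor that marks these stem cells, at 5.59, 4.63 and 8.54 CPM. Genes of the dividing cell were mostly highest in 1-4. Of 18 cell cycle genes 16 were highest in 1-4 and 0 in 3-1, with a median ratio of 1.97 and 0 variable. Top2a, which untangles DNA, was at 96.9, 165 and 70.7 CPM. All 17 measured replication-dependent histone genes were highest in 1-4 too, such as H1f5 at 56.7, 104 and 41.0 CPM. Centring by transcript length lowered the median ratio of the histone genes and, by less, that of the cell cycle genes. The part of length in their high level in 1-4 was not tested.

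Smooth muscle genes were lower in 1-4 by about the same ratio. All 14 markers were measured, all 14 were lowest in 1-4, and the median ratio was 2.47, with 0 past 4. Acta2, smooth muscle actin, was at 264, 116 and 302 CPM, and Myh11, smooth muscle myosin, at 533, 230 and 478 CPM. Tagln, a short actin-binding protein, was at 137, 45.3 and 141 CPM. Centring by transcript length left the median ratio at 2.56. Other lists of the wall varied. Fibroblast and matrix genes had mean log2 deviations of 0.13, -0.16 and 0.031 in 1-1, 1-4 and 3-1, with Col1a2, of type I collagen, at 33.6, 37.9 and 32.5 CPM. Endothelial genes had -0.0095, 0.039 and -0.030. Enteric glia, the support cells of the gut nerves, were lower in 1-4, with 0.17, -0.41 and 0.24. Interstitial cells of Cajal, the gut pacemakers, had 0.23, -0.43 and 0.20, a mean of only 6 measured genes. Of these 4 were lowest in 1-4, 1 was variable and 2 were steady, against 3.53% and 22.8% of all measured genes. Their median ratio was 1.39, against 1.46 over all measured genes. Genes of mesothelium, the outer lining, had a median ratio of 2.48 with 1 of 9 variable, but epithelial keratins are among them. How much muscle wall each sample held is not in the labels, and its part in these values was not tested.

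B cell and plasma cell genes had the widest spread of all lists, in 2 separate patterns. Of 15 markers 14 were measured and 11 were variable, with a median ratio of 11.5. Genes of B cells before they secrete antibody were highest in 1-1 and almost missing in 3-1. Ms4a1, the B cell surface protein CD20, was at 24.3, 8.51 and 0.725 CPM. Cd79b, of the B cell receptor, was at 25.4, 14.7 and 1.59 CPM. Cr2 (Entrez 12902, chromosome 1 from 195136811 to 195176880), a complement receptor of B cells and follicular dendritic cells, was at 15.3, 5.46 and 0.102 CPM, the last from 9 reads, a ratio of 150.2. Cxcl13, a chemokine that draws B cells into follicles, was at 23.1, 8.38 and 1.22 CPM.

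Of the 20 variable genes with the largest ratio and at least 5 CPM, Fcamr, H2-Eb2, Btla, H2-Ob, Cxcr4, Irf4 and Ly6d, all known from lymphoid tissue, also had their lowest value in 3-1. Fcamr, a receptor for IgM and IgA, was at 16.2, 4.66 and 0.351 CPM. Of 12 measured T cell markers 6 were highest in 1-1 and 6 in 3-1, and 8 were lowest in 1-4. Cd2, an adhesion protein of T cells, was the variable one at 3.05, 1.87 and 0.385 CPM, in the order of the B cell genes, while Cd3g, of the T cell receptor complex, was at 4.98, 3.24 and 4.81 CPM. Cd74, the invariant chain of MHC class II, was steady at 1040, 1009 and 1029 CPM, while the class II genes of B cells H2-Oa and H2-Ob were variable. Whether lymphoid follicles were taken with some samples is not in the labels and was not tested.

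Genes of antibody secretion were instead highest in 1-4. Igha, the constant region of IgA (Entrez 238447, chromosome 12 from 113256204 to 113260236), was at 1103, 4823 and 692 CPM. Jchain, which joins IgA into dimers, was at 641, 1932 and 442 CPM, and Mzb1, a chaperone of plasma cells, at 6.27, 13.3 and 2.64 CPM. Of 98 measured immunoglobulin segments 86 were variable, 71 were highest in 1-4, 15 in 1-1 and 12 in 3-1. Their summed level was 2240.5, 8636 and 1399.6 CPM.

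The variable segments differed by library rather than by amount alone. Ighv1-55 held 25.4% of the reads of the measured V segments in 1-1, Iglv1 26.3% in 1-4 and Ighv6-3 9.90% in 3-1. No V segment was among the 5 highest in all 3 libraries, and 4 were among the 10 highest in all 3. Igkv4-72 was at 135, 0.522 and 0.442 CPM. Iglv1 was at 14.1, 498.5 and 29.6 CPM. V segments resemble each other, so a read can be counted for a related segment.

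The B and plasma cell count was 11 without 1-1, 7 without 1-4 and 2 without 3-1, and 11 after centring by transcript length. Macrophage and dendritic markers had 0 of 13 variable and a median ratio of 1.48, against 3.53% and 1.46 over all measured genes. C1qa, of the complement starter C1q, was at 20.6, 30.6 and 22.6 CPM. MHC class I genes had 0 of 17 measured variable and 5 steady, with B2m, its light chain, at 1407, 1222 and 1455 CPM. Interferon-stimulated genes had 0 of 21 measured variable. In lists this short, 0 variable members is near the share of all genes.

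Red cell genes and early response genes were highest in 3-1. All 5 measured red cell genes were variable, and Hbb-bs, a beta globin, was at 46.0, 28.0 and 160.6 CPM. Without 3-1, or without 1-4, 0 of the 5 were variable. Of 17 measured immediate early genes 6 were variable and 15 were highest in 3-1. Nr4a1, a nuclear receptor induced within minutes, was at 1.11, 2.10 and 15.1 CPM, and Atf3, a stress-induced factor, at 12.3, 14.4 and 63.0 CPM. Fos was at 50.4, 23.9 and 82.8 CPM. The growth factors Hbegf and Areg, which act on the EGF receptor, were also highest in 3-1, at 6.11, 5.19 and 35.2 CPM and at 6.36, 4.59 and 25.9 CPM. The immediate early count was 3 without 1-1, 5 without 1-4 and 1 without 3-1. Blood content and handling of the tissue are not recorded in the labels, and their part was not tested.

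Mitochondrial mRNAs and nuclear genes of the same respiratory chain behaved apart. All 12 measured mitochondrial mRNAs were highest in 3-1, 5 were variable, and the median ratio was 3.67. COX1 was at 31194, 13110 and 45810 CPM, and ND5, of complex I, at 112, 28.3 and 137 CPM. Without 1-4 or without 3-1 the count was 0. The 34 nuclear genes of oxidative phosphorylation had a median ratio of 1.32, 11 steady and 0 variable, and 24 of them were highest in 1-4. Centring by transcript length lowered their median ratio. The part of length in their high level in 1-4 was not tested. Atp5b, of the ATP synthase, was at 1305, 1734 and 1364 CPM, and Cox4i1, of cytochrome oxidase, at 418, 476 and 486 CPM. Ribosomal protein genes, of which 28 of 29 listed were highest in 1-4, had a median ratio of 1.46, which became 1.23 after centring by transcript length.

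**Figure D4:**
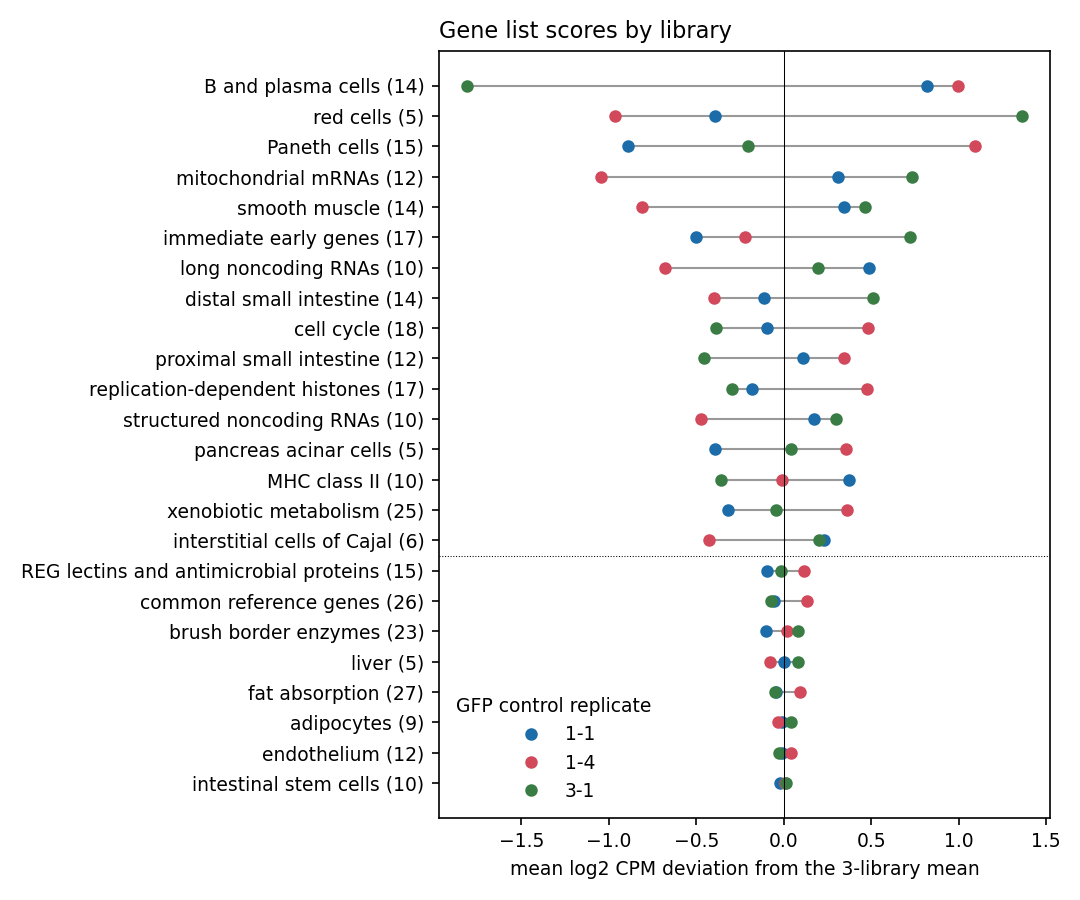
Mean log2 CPM deviation of a list's measured members from their 3-library mean (horizontal axis), with 1 point per library and the number of measured members in brackets. The 16 lists with the widest spread stand above the dotted line, led by B and plasma cells from -1.81 in replicate 3-1 to 0.99 in 1-4, and the 8 narrowest below it, down to intestinal stem cells from -0.021 to 0.015.

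Over all measured genes, the share of variable genes was larger at the lowest and highest levels than between them. Of 5649 genes from 1 to 10 CPM, 6.41% were variable. Of 6268 genes from 10 to 100 CPM it was 1.32%, and of 1493 genes from 100 to 1000 CPM it was 1.41%. Of the 102 genes at 1000 CPM or more, 10.8% were variable, among them defensins, the mucins, Igha and Jchain. Of the 477 variable genes, 293 were protein-coding and 7 had a library under 3 reads. For 124 of them 1-4 was the library that stood apart on the low side, for 117 it was 3-1 on the low side and for 89 it was 1-4 on the high side. The threshold splits close neighbours, since Rbm24 lay just under it at 3.999 and Ms4a4c just past it at 4.01.

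Other variable genes differed in which library stood apart. Gsta3 and Gstm3, which join glutathione to foreign compounds, were high in 1-4 alone, at 3.01, 29.5 and 3.67 CPM and at 2.42, 20.3 and 2.49 CPM. Akr1b8, an aldehyde reductase, had the same shape at 4.82, 30.6 and 5.13 CPM. Chac1, which breaks down glutathione, was at 9.25, 16.3 and 0.985 CPM, and Slc7a11, the cystine carrier that feeds its synthesis, at 14.5, 6.77 and 1.47 CPM, both lowest in 3-1. G6pc, glucose-6-phosphatase, was at 391, 339 and 69.5 CPM, and Ppargc1a, a coactivator of mitochondrial genes, at 52.6, 12.1 and 16.7 CPM. Ccl20, a chemokine of the epithelium over lymphoid follicles, was highest in 1-1 at 15.9, 2.37 and 5.07 CPM.

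**Figure D5:**
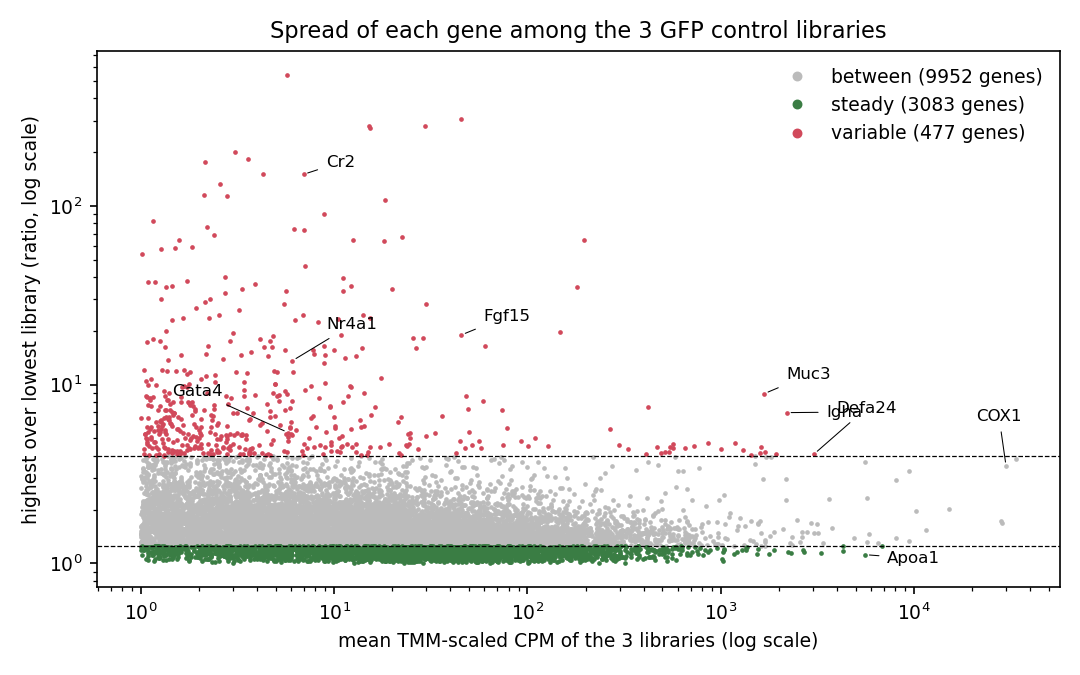
Ratio of the highest to the lowest library (vertical axis, log scale) against the mean CPM of the 3 libraries (horizontal axis, log scale), 1 point per measured gene, with dashed lines at the limits for variable and steady genes. The 477 variable genes lie mostly under 10 CPM, with a second group near and above 1000 CPM that holds Muc3, Igha and Defa24, and the 3083 steady genes run over the whole range.

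Steady genes were 3083, or 22.8% of those measured, with Capn8 just inside the limit and Unc13b just outside. The 15 with the smallest ratio and at least 50 CPM had ratios from 1.01 to 1.02. They included Ppp2ca, the catalytic subunit of protein phosphatase 2A, at 234, 235 and 235 CPM, Usp12, a deubiquitinase, at 101, 101 and 101 CPM, and Map2k1, the kinase MEK1, at 132, 131 and 130 CPM. Also among them were Uba3, of the neddylation pathway, Opa1, which fuses mitochondrial inner membranes, Prdx5, a peroxidase, Gclm, of glutathione synthesis, and Gal3st2b, a sulfotransferase. These genes were picked for their small ratio, so their closeness is a description.

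Common reference genes spread about as all measured genes did. Of 26, 6 were steady and 0 variable, with a median ratio of 1.40 against 1.46. Hprt, of purine salvage, was at 91.2, 88.5 and 87.8 CPM, and Gapdh, of glycolysis, at 185, 184 and 167 CPM. Actb was at 9224, 10836 and 8150 CPM. Polr2a, the large subunit of RNA polymerase II, was at 64.6, 25.2 and 64.6 CPM, the least even of the 26. The transcript of Polr2a is long (7.41 kb), and centring by length changed its ratio from 2.56 to 2.16.

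The motif TATAA also differed by spread. It was present in 15.2% of 211 variable coding genes with a promoter, 3.23% of 7465 between the limits and 2.00% of 2349 steady ones. Of the 32 variable genes with it, 6 were Defa genes. Without the Defa family it was 26 of 201, or 12.9%. The others among the 1000 highest genes were Muc2, G6pc and Hbb-bs. This is a description of letters upstream, and level and cell type differ between these groups.

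Genes of stomach and pancreas were mostly under 1 CPM. Of 10 stomach markers 0 were measured, and Gkn1 and Muc5ac had no read. Of 20 pancreatic markers 5 were measured, and Pnlip, Cel and Prss2 had no read. The measured ones include Zg16 and Clps, a cofactor of pancreatic lipase, which was highest in 1-4 at 9.91, 44.9 and 16.7 CPM. Of 12 liver markers 5 were measured, with Trf, the plasma iron carrier, the highest at 22.0, 25.3 and 16.2 CPM, while Alb, the main liver protein, was at 0, 0 and 0.0566 CPM. Of 10 colon markers 5 were measured, among them Mep1a, a brush border protease, at 1721, 1929 and 2674 CPM, and Car1 had no read. Of 12 skeletal muscle markers 2 were measured, Ckm at 4.78, 2.73 and 5.40 CPM and Acta1.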

How the data were processed

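Total RNA of small intestine was sequenced in 6 libraries, and the 3 labelled GFP control were used. The 9 value columns of the other 3 libraries were not used. The submitters' processing notes list the genome build mm10 and, with no versions or roles, StringTie, HISAT2, Trimmomatic and FastQC. The program that made the read counts, its use of strand and its handling of reads with several matches are not given in the sources used here. Per the file headers, the authors deposited counts, TPM and FPKM for each gene in each library. The deposited counts are whole numbers without normalisation. The deposited FPKM values were used only for transcript lengths and an alternative ranking.

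Counts were scaled by TMM in edgeR 4.0.16 (R 4.3.3) over these 3 libraries, which gave factors of 1.02, 1.04 and 0.942, and turned into CPM. The ratio of a gene is its highest over its lowest library, with a library under 3 reads set to 3 reads. Genes with a mean of at least 1 CPM are measured, those with a ratio of at least 4 variable and those whose highest library is at most 25% above the lowest steady. The biological coefficient of variation came from edgeR with an intercept only. The scaling and ratio steps were tested on simulated data. Shares and ratios carry counting error that was small beside the spread between libraries.

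The 52 gene lists hold 847 entries, of which 841 were found. The lists and the genes named were chosen with earlier results of these data known. Named were the 25 coding genes of highest mean TPM, the 10 genes of highest count, the highest 5 by TPM and by CPM in each other RNA class with 20 measured genes, the 20 variable genes of largest ratio and up to 10 per library that stands apart (5 CPM or more, no unnamed gene models or receptor segments), the 15 steadiest of at least 50 CPM, up to 7 per list and 10 fixed genes, and any other was chosen after its values were seen. Positions are from the RefSeq table of GRCm38, the assembly that mm10 names, and count from 1. RefSeq promoters were matched for 10025 of the 12491 measured coding genes. The alternatives were 3 other scalings (DESeq2 1.42.0 size factors, upper quartile, total count), TPM in place of counts, other filters and limits, tables without ribosomal and mitochondrial rows or with coding rows only, leaving out each library, and, chosen after seeing the data, centring by transcript length. A few genes that the rule takes, and 1 sequence, are not reported here.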

Additional observations from a re-analysis of the deposited data

How the results depend on the processing

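The 477 variable genes became 482, 518 and 497 under DESeq2, upper quartile and total count scaling, 418 on TPM and 417 with centring by transcript length, which shared 376 of them. Of the 477, 274 were also variable on TPM, and 176 of the 203 that were not lay under 1 TPM. Other limits moved the count by their construction. It was 115 at 10 CPM or more and 2160 with no filter, 2389 at a ratio of 2 and 164 at a ratio of 8. Leaving out a library gave 203 to 280, since 2 libraries spread less than 3. The 3083 steady genes became 6233 with no filter, 7340 at a ratio of 1.5 and 5593 to 7818 without 1 library. Which genes were steady depended on the measure. On TPM 2450 were steady and shared 1629 (52.8%) of the 3083. With centring by transcript length 3814 were, sharing 2165. Under DESeq2, upper quartile and total count scaling 3016, 2480 and 2235 of the 3083 stayed steady. Lists with at least 5 measured members of which 33.3% or more are variable numbered 5, and 1 to 3 without 1 library. The coding share was 86.8% of counts and 60.1% of TPM, where short structured RNAs weigh more. Of 237 alternative list medians 219 stayed within 1.5 times their value, and 17 of the 18 that moved came from leaving out a library. A ratio is at least 1, so a median of 1.5 or less could not count as moved by falling. The 219 is therefore in part fixed beforehand. The biological coefficient of variation ran from 0.260 to 0.335. With 3 libraries the highest and lowest values are single samples. No paired analysis was possible because there is only 1 group.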

Other observations

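Metabolic lists outside the report differed in spread. Cholesterol synthesis had 21 of 21 genes measured, 6 steady and 0 variable, with Hmgcs1, which makes the precursor of mevalonate, at 415, 347 and 390 CPM, and Mvk, mevalonate kinase, at 14.6, 13.9 and 13.7 CPM. Fatty acid oxidation had 0 of 17 variable and 0 steady, with a median ratio of 1.62, and 14 of the 17 were highest in replicate 1-4, such as Hadha, of the mitochondrial trifunctional enzyme, at 280, 473 and 327 CPM. Of 15 genes of gluconeogenesis 2 were variable, G6pc and Ppargc1a, with a median ratio of 1.64. Of 25 measured genes of xenobiotic metabolism 3 were variable, with a median ratio of 1.57, namely Cyp2b10, Cyp2c55 and Gstm3. Cyp2c55, a cytochrome P450, was at 18.7, 41.5 and 82.3 CPM.

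Clock genes, which follow the time of day, had a median ratio of 2.06 with 0 of 18 variable. Arntl, the core activator BMAL1, was at 21.8, 21.5 and 44.8 CPM, and Dbp, an output gene that peaks at another time of day than Arntl, was at 10.6, 12.2 and 4.41 CPM, so 3-1 was the highest library for one and the lowest for the other. The time at which samples were taken is not in the labels.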
